A study of Mus musculus with 15 samples.

Results

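The cytosolic ribosomal protein transcripts were taken as all rows of the expression table whose symbol is Rpl or Rps followed by a digit, or is Rpsa, Rplp0, Rplp1 or Rplp2, leaving out 7 rows with a pseudogene name (-ps) and 10 rows of S6 kinases. The rule found 89 of 25030 rows. Of these, 77 were canonical subunits (31 of the small subunit, 43 of the large subunit and the 3 stalk proteins), 11 were paralogs or retrogene copies, and 1, Rps19bp1, encodes no subunit. Bulk RNA-seq was made from cortex, outer medulla (OM) and inner medulla (IM) dissected from kidneys of wild type male mice, whose strain the labels spell C56BL/6N, with 5 libraries a zone and no treatment. The labels give no age and do not say whether libraries came from separate mice, so p-values measure the spread between these libraries only. Values are TPM (transcript abundances corrected for length), which sum to 1000000 in each library, and the reads behind them came to between 16264486 and 25195553 a library.

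Each ribosome joins a small subunit, which reads the messenger RNA, to a large subunit, which forms the peptide bond, and each canonical protein is normally present in a single copy per particle, apart from the stalk proteins. Their messenger RNAs are among the most abundant of a cell and mostly begin with a C followed by a run of pyrimidines, the TOP motif, through which mTORC1 and the binding protein Larp1 control their translation. The kidney zones differ in the cells they hold: proximal tubules dominate the cortex, thick ascending limbs the OM, and collecting ducts and thin limbs the IM.

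The zone labels were checked with marker genes. Summed TPM of Slc34a1, Slc5a2 and Lrp2 (proximal tubule) was 5345 to 6606 in cortex and 468 to 873 in IM, and that of Aqp2, Aqp3 and Fxyd4 (principal cells) was 377 to 515 in cortex and 7779 to 12636 in IM. The thick limb markers Slc12a1 and Umod summed to 2406 to 5132 TPM in OM, but also to 2047 to 4531 TPM in IM. OM library 1 stood apart from the other 4 OM libraries. It had urothelial markers at 37.3 TPM (7.22 to 12.9 in the others) and thin limb markers at 538 TPM (274 to 355). Its thick limb markers were at 2406 TPM (4235 to 5132) and its principal cell markers at 1057 TPM (714 to 915). Urothelial markers were higher still in every IM library, at 172 to 275 TPM, and lay at 0.393 to 3.82 TPM in cortex. Endothelial markers summed to 149 to 173 TPM in cortex and 1238 to 1691 in IM, and proliferation markers to 48.4 to 53.3 and 88.7 to 105. In whole tissue, fewer cells of a type and less RNA per cell cannot be told apart.

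The annotated transcript starts were searched for the letters of the TOP motif. The RefSeq promoter table (GRCm38.p6) held 68 of the 89 members. A C at the annotated start followed by at least 4 pyrimidines (C or T) on the transcribed strand was found in 13 of 57 canonical members (22.8%), in 813 of 27025 genes of the table (3.01%) and in 0 of 69 mitochondrial ribosomal protein genes. Most canonical members thus lacked it at that base, and the paralogs, with 2 of 10, had it about as often. Within 10 bases on either side of the start it was found in 59.6% of canonical members, in 7 of 10 paralogs and in 34.4% of all genes. The windows printed here are of members described later and of examples that carry the run, so they are not typical of the set. In these 30-base windows the annotated start is base 16, and capitals mark each run of at least 4 pyrimidines after a C that lies within 10 bases of the start, with that C; runs that begin farther away are in lower case.
Rplp2: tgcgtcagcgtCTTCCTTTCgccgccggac
Rps6: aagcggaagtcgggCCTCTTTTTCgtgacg
Rps15a: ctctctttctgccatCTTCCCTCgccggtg
Rps27: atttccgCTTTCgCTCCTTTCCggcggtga
Rps27rt: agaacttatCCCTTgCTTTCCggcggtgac
Rps27l: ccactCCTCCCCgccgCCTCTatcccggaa
Rps2: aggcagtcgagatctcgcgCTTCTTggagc
Rpl3l: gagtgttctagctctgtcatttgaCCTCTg
The windows lie at chr7:141447636-141447665 (Rplp2, plus strand), chr4:86857353-86857382 (Rps6, minus), chr7:118116133-118116162 (Rps15a, minus), chr3:90213634-90213663 (Rps27, minus), chr9:114982725-114982754 (Rps27rt, minus), chr9:66946071-66946100 (Rps27l, plus), chr17:24720048-24720077 (Rps2, plus) and chr17:24727811-24727840 (Rpl3l, plus), each covering the end of the promoter and the first exon. The first 5 carry the run at the annotated start, while Rps27l, Rps2 and Rpl3l carry one only beside it. A match of these letters is a description of the window and not a shown site.

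By summed TPM, ribosomal protein transcripts made up a larger part in IM than in the other zones. The summed share of TPM of the 89 members was 6.33% ± 0.177 (SD, n = 5) for cortex, 6.06% ± 0.420 for OM and 7.78% ± 0.164 for IM. The 5 IM libraries lay between 7.55% and 7.98%, above every cortex library (6.15% to 6.58%) and every OM library (5.74% to 6.80%). OM library 1 held the 6.80%, while the other 4 OM libraries lay between 5.74% and 5.94%, under every cortex library. The small subunit held 2.49%, 2.38% and 3.11% of TPM in cortex, OM and IM, and the large subunit 3.17%, 3.07% and 3.81%. Members took 11 to 13 places among the 100 most abundant genes of a cortex library, 11 to 15 in OM and 31 to 33 in IM. The share of reads, where a short transcript counts for less, was 2.42% to 2.62% in cortex, 2.20% to 2.75% in OM and 2.55% to 2.77% in IM, with overlap of all 3 zones. In another measure, microRNA and small nucleolar or nuclear RNA rows and the 100 most abundant genes were left out of the denominator only. The summed TPM of all 89 members then came to 9.70% of the rest in cortex, 8.98% in OM and 10.3% in IM. Members among the 100 genes, most numerous in IM, stayed in the numerator, so these values are not true shares. Under that denominator the zones overlapped, with cortex libraries at 9.40% to 10.1%, OM libraries at 8.47% to 10.1% and IM libraries at 10.002% to 10.5%.

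**Figure D1:**
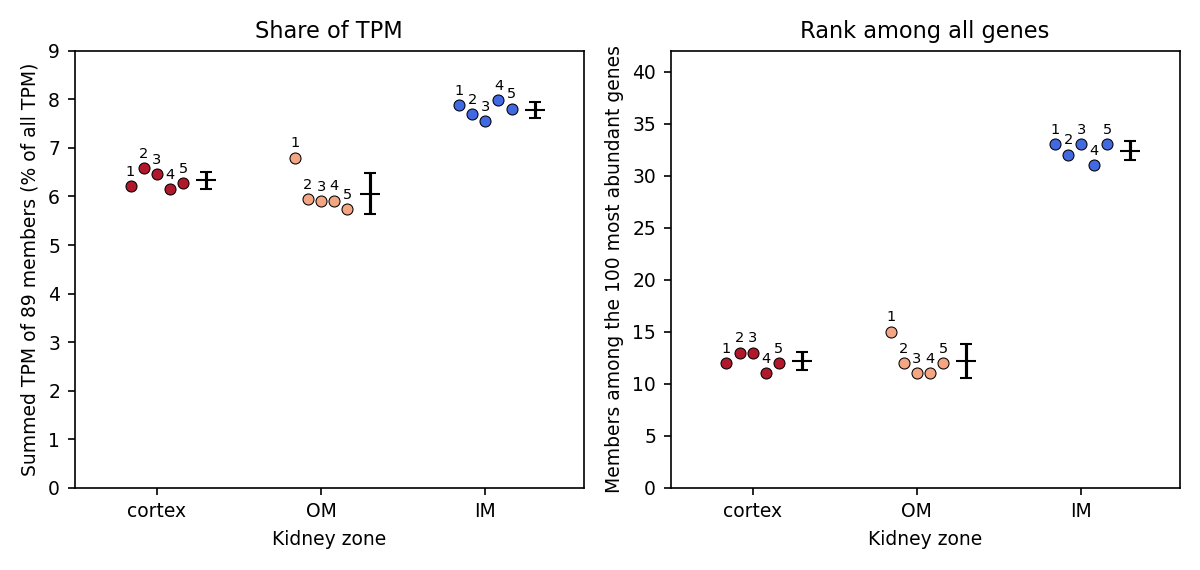
Left, summed TPM of the 89 members as a percent of all TPM in each library, by kidney zone. Right, members among the 100 most abundant genes of each library. Points are libraries with their number, and bars are the mean ± SD (n = 5). The IM libraries lie at 7.55% to 7.98% and 31 to 33 genes, above all others, and OM library 1 stands apart from the other OM libraries at 6.80%.

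The transcripts of the canonical proteins kept nearly the same order of levels in all zones. Mean TPM of the 77 canonical members ran from 53.0 (Rps15a, a small subunit protein) to 2120 (Rpl41, the smallest protein of the large subunit) in cortex, with a median of 779. In IM it ran from 66.3 (Rps15a) to 2674 (Rplp1, an acidic stalk protein), with a median of 946. Above 200 TPM in every library were 74 of the 77, and 59 had a mean between 500 and 1500 TPM in cortex. Spearman's rho of the zone means across the 77 genes was 0.993 between cortex and OM, 0.958 between OM and IM and 0.957 between cortex and IM, given as a description since genes share their libraries. In Rpl41, TPM was 2032, 2280, 2334, 1911 and 2042 in cortex libraries 1 to 5, 2221, 1893, 1945, 1854 and 1824 in OM, and 2188, 2279, 1998, 2088 and 2330 in IM. These 3 zones overlapped for Rpl41.

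**Figure D2:**
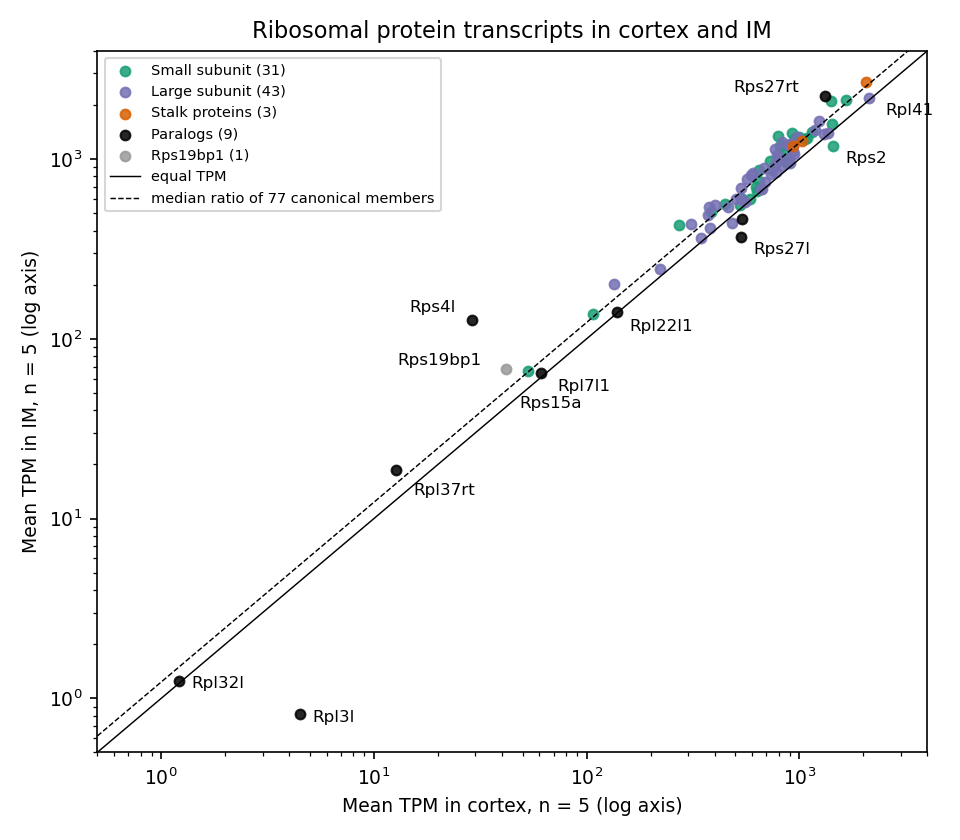
Mean TPM of each member in cortex (horizontal, log axis) and IM (vertical, log axis), n = 5 libraries each, coloured by class; members at 0 in cortex are not drawn. The solid line marks equal TPM and the dashed line the median IM to cortex ratio of the canonical members, 1.23. Most subunits lie along the dashed line, Rps4l lies far above it, and Rpl3l, Rps27l and Rps2 lie under the solid line.

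Gene by gene, the rise in IM depended on what the transcripts were measured against. Differences were tested in limma on log2(TPM + 1) over the 15052 genes that reached 1 TPM in 5 or more of the libraries, with Benjamini-Hochberg adjustment over all of them, and a gene was called at an adjusted p under 0.05. Of the 89 members 87 passed that filter. Rpl10l, a copy known from testis, was listed at 0 in every library, and Rpl39l, likewise known from testis, was above 0 in 2 libraries only. Rpl3l, under 1 TPM in every IM library, passed through cortex and OM alone, so its calls against IM are no support, and Rpl32l was under 1 TPM in some libraries. Against cortex, 63 of the 87 members were called higher in IM and 5 lower, where 70.2% of all genes tested were called higher and 16.0% lower. Against OM, 75 members were called higher in IM and 4 lower, beside 66.4% and 17.2% of all genes. The median log2 difference of the members was 0.29 for IM minus cortex and 0.34 for IM minus OM, but that of all genes tested was 0.65 and 0.51.

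Since the middle of all genes rose on the TPM scale, each library was also divided by its median ratio to the geometric mean over libraries, with mean factors of 0.826 in cortex, 0.925 in OM and 1.35 in IM. On this median-ratio scale 75 of 87 members were called lower in IM than in cortex and 1 higher, beside 38.6% of all genes lower and 40.0% higher. For IM minus OM 47 were called lower and 3 higher, beside 36.3% and 38.1% of all genes. The median log2 differences of the members were then -0.40 and -0.20, and those of all genes 0.03 and 0.03. For IM minus cortex 52 members were called higher on the TPM scale and lower on the median-ratio scale, and for IM minus OM 36 were. The call on both scales was the same for 5 members lower in IM than in cortex (Rps27l, Rpl29, Rpl36al, Rps2 and Rpl3l) and for 1 higher (Rps4l). For IM minus OM it was the same for 4 lower (Rps27l, Rpl29, Rps2 and Rpl3l) and 3 higher (Rps4l, Rps27 and Rps27rt). Without overlap between zones in TPM were 56 members higher in IM than in cortex and 4 lower, beside 64.2% and 13.3% of all genes.

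OM and cortex differed in few members on the TPM scale and in most on the other. No member was called higher in OM and 3 were called lower, namely Rpsa, Rpl10a and Rpl3l, where 28.3% of all genes were called higher and 6.3% lower. The median log2 difference of the members was -0.06, and that of all genes 0.11. On the median-ratio scale 61 members were called lower and 0 higher, beside 17.8% and 16.2% of all genes, with medians of -0.22 and -0.03. Without OM library 1 the members called lower came to 18 on the TPM scale (6.23% of all genes) and 77 on the median-ratio scale (18.1%). Leaving out cortex library 1 or IM library 1 gave 5 called lower on the TPM scale, and leaving out OM library 2 or IM library 1 gave 1 called higher. Rpsa, a small subunit protein also known as the laminin receptor, had TPM of 619, 664, 676, 605 and 584 in cortex and 603, 533, 561, 521 and 485 in OM. OM was lower by 0.22 ± 0.06 (log2, SE; limma adjusted p = 0.0114), with OM library 1 inside the cortex range.

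Within the set, members moved by different amounts, which was read by dividing each library by the median ratio of the 77 canonical members. On this ribosomal-protein scale, which shows only how a member moved against the others, 25 members were called higher and 30 lower in IM than in cortex, beside 56.7% and 22.7% of all genes. For IM minus OM the counts were 23 and 29 (46.8% and 27.1% of all genes), and for OM minus cortex 0 and 2 (30.8% and 4.34%). The small subunit had 10 of 31 called higher and 8 lower in IM than in cortex, and the large subunit 12 of 43 higher and 17 lower.

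At the upper end stood Rps24, a small subunit protein, with TPM of 292, 283, 267, 255 and 262 in cortex, 331, 267, 257, 261 and 234 in OM, and 425, 436, 436, 432 and 423 in IM. All IM libraries lay above all others, and cortex and OM overlapped. The IM minus cortex log2 difference was 0.66 ± 0.07 (SE; limma adjusted p = 3.26e-07) on the TPM scale and -0.04 on the median-ratio scale, where it was not called. Rps12, of the small subunit, rose by 0.59 ± 0.07 (adjusted p = 8.42e-07, limma) and Rps14, of the platform of the small subunit, by 0.57 ± 0.07 (5e-07) on the TPM scale, and neither was called on the median-ratio scale (-0.11 and -0.13).

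At the lower end stood Rps2 and Rpl29, the only canonical members called lower in IM than in cortex on the TPM scale. Rps2, which lies at the entry of the messenger RNA channel, had TPM of 1461, 1469, 1497, 1440 and 1345 in cortex, 1381, 1409, 1306, 1218 and 1359 in OM, and 1178, 1233, 1266, 1086 and 1138 in IM. Every IM library lay under every cortex library, and IM and OM overlapped. The log2 difference for IM minus cortex was -0.29 ± 0.06 (SE; limma adjusted p = 0.000172) on the TPM scale and -0.99 ± 0.07 (adjusted p = 1.82e-09) on the median-ratio scale. Rpl29, of the large subunit, was at 484 ± 13.3 TPM (SD, n = 5) in cortex, 476 ± 12.1 in OM and 438 ± 21.2 in IM, and its difference of -0.14 ± 0.04 (log2, SE) for IM minus cortex had an adjusted p of 0.0072 in limma. With quantile normalization the difference of Rpl29 turned to 0.01 (adjusted p = 0.847, limma). Not called for IM minus cortex on the TPM scale were 16 canonical members, among them Rpl5 (346 and 365 TPM) and Rpl11 (555 and 575 TPM), which together with 5S RNA form the particle that binds Mdm2.

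The 3 stalk proteins, which recruit the elongation factors, had their lowest mean TPM in OM and their highest in IM. Rplp1 had TPM of 1655, 2341, 2077, 2130 and 2127 in cortex, 1617, 1869, 1819, 1799 and 1717 in OM, and 2166, 2837, 2729, 2858 and 2779 in IM. Library 1 was the lowest of each zone. For IM minus OM the log2 difference was 0.59 ± 0.09 (SE; limma adjusted p = 2e-05) on the TPM scale and 0.05 ± 0.09 (0.616) on the median-ratio scale. Rplp2 was at 930 ± 111, 809 ± 53.3 and 1174 ± 118 TPM (SD, n = 5) and Rplp0, the core to which the acidic proteins attach, at 1031 ± 33.9, 951 ± 27.2 and 1263 ± 67.2 TPM in cortex, OM and IM. OM minus cortex was not called on the TPM scale for any of the 3 with all libraries. Without the 3 libraries numbered 1 it was called in limma for Rplp1 (log2 -0.27, adjusted p = 0.000942), Rplp2 (-0.23, 0.00336) and Rplp0 (-0.12, 0.0229). In that setting, added after the data were seen, 24 members were called lower, so the calls were not confined to the stalk. The share of all genes called lower there is not given, so the count does not compare members with other genes. All 3 stalk genes are also among the members lowest, relative to the set, in library 1 of every zone.

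The libraries numbered 1 shared a profile within the set in all 3 zones. After each library was centred on the canonical members, 13 members were lowest in library 1 of every zone, among them Rpl36, Rplp1, Rplp2, Rps29 and Rpl27a. Another 12 were highest there, among them Rpl26 and Rpl32. For libraries numbered 2 these counts were 1 and 2, for those numbered 4 they were 3 and 3, and for those numbered 3 and 5 they were 0. Deviations were taken from the mean of the other libraries of the same zone. For Rpl36, a large subunit protein, they were -0.49, -0.63 and -0.41 (log2) in library 1 of cortex, OM and IM. In the other 12 libraries they were -0.02 to 0.22. Over the 77 members the deviations of the libraries numbered 1 correlated at r = 0.83 between cortex and OM, 0.80 between OM and IM and 0.81 between cortex and IM, as a description across genes of the same libraries. The GC content of the coding frames moved with it: r with the deviations was -0.62, -0.56 and -0.52 in these 3 libraries, and the median GC content was 57.7% in the 13 low members, 50.4% in the 12 high members and 53.2% in all 77. In the other 12 libraries r with GC content was 0.04 to 0.52. With the zone differences of the 77 members on the TPM scale, r was -0.28 for OM minus cortex, 0.06 for IM minus OM and -0.03 for IM minus cortex. The part of GC content in the zone differences was not tested, and the labels do not say what the numbers stand for.

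**Figure D3:**
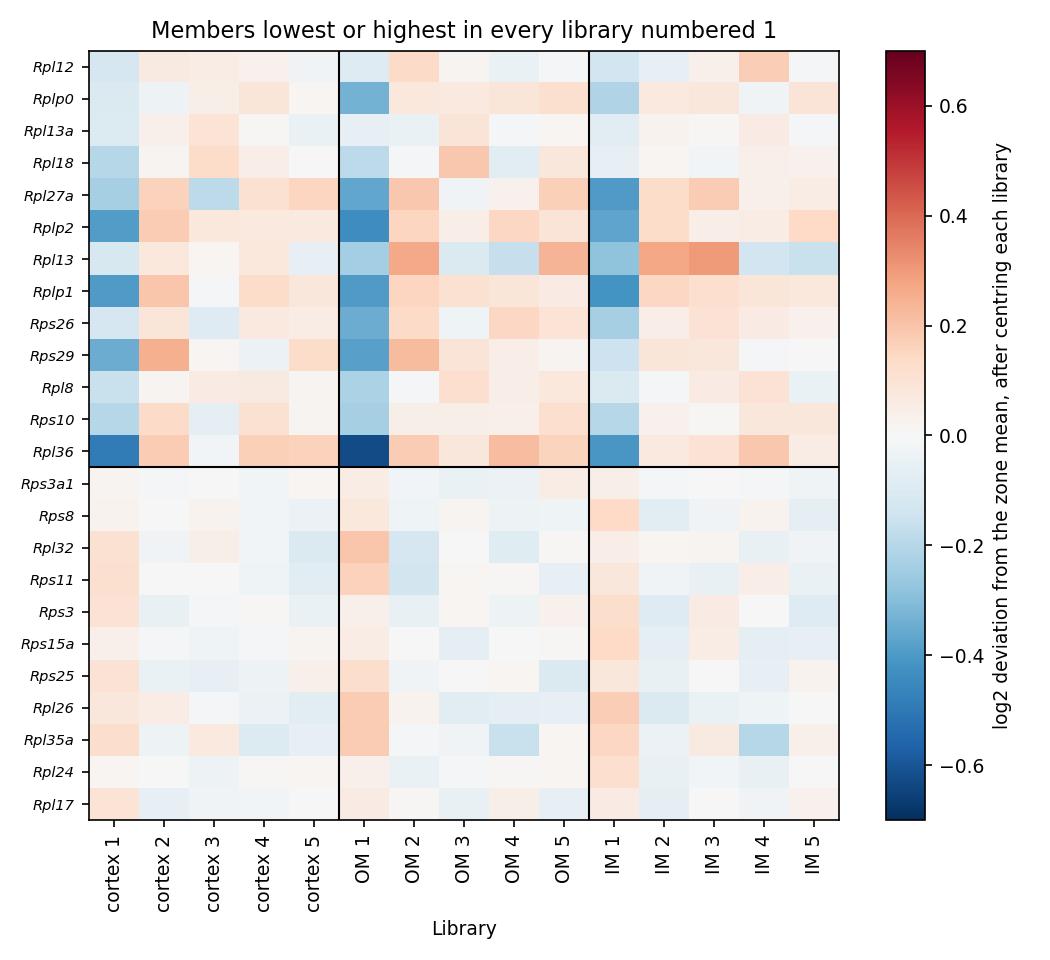
Log2 deviation of a member (rows) in each library (columns) from the mean of the other libraries of its zone (named zone mean on the colour bar). Each library was first centred on the 77 canonical members. Red is high and blue low. Shown are the 13 members lowest (upper block) and 11 of the 12 highest (lower block) in library 1 of every zone, so that the first column of each zone stands out by choice. Rpl36 reaches -0.63 in OM library 1.

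On the TPM scale the log2 difference of IM minus cortex ran from -1.58 (Rpl3l) to 2.10 (Rps4l) in the paralogs and from -0.29 (Rps2) to 0.75 (Rps27) in the canonical members. Of the 9 paralogs that passed the filter, 3 were called higher and 3 lower in IM than in cortex on the TPM scale, beside 70.2% and 16.0% of all genes. A paralog and its parent share a library, so scaling cancels in their ratio except for the pseudocount of 1 TPM added to both, which weighs on the low copies Rpl3l and Rpl32l. The log2 ratio was compared for 8 pairs in 3 zone comparisons by exact two-sided permutation of 5 against 5 libraries, with Benjamini-Hochberg adjustment over the 24 tests. The smallest p this design allows is 0.00794, which adjusted to 0.0147 and was reached in 13 tests, the 3 of Rpl3l among them. Those of Rpl3l against IM are no support, since it passed the filter only through cortex and OM.

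**Figure D4:**
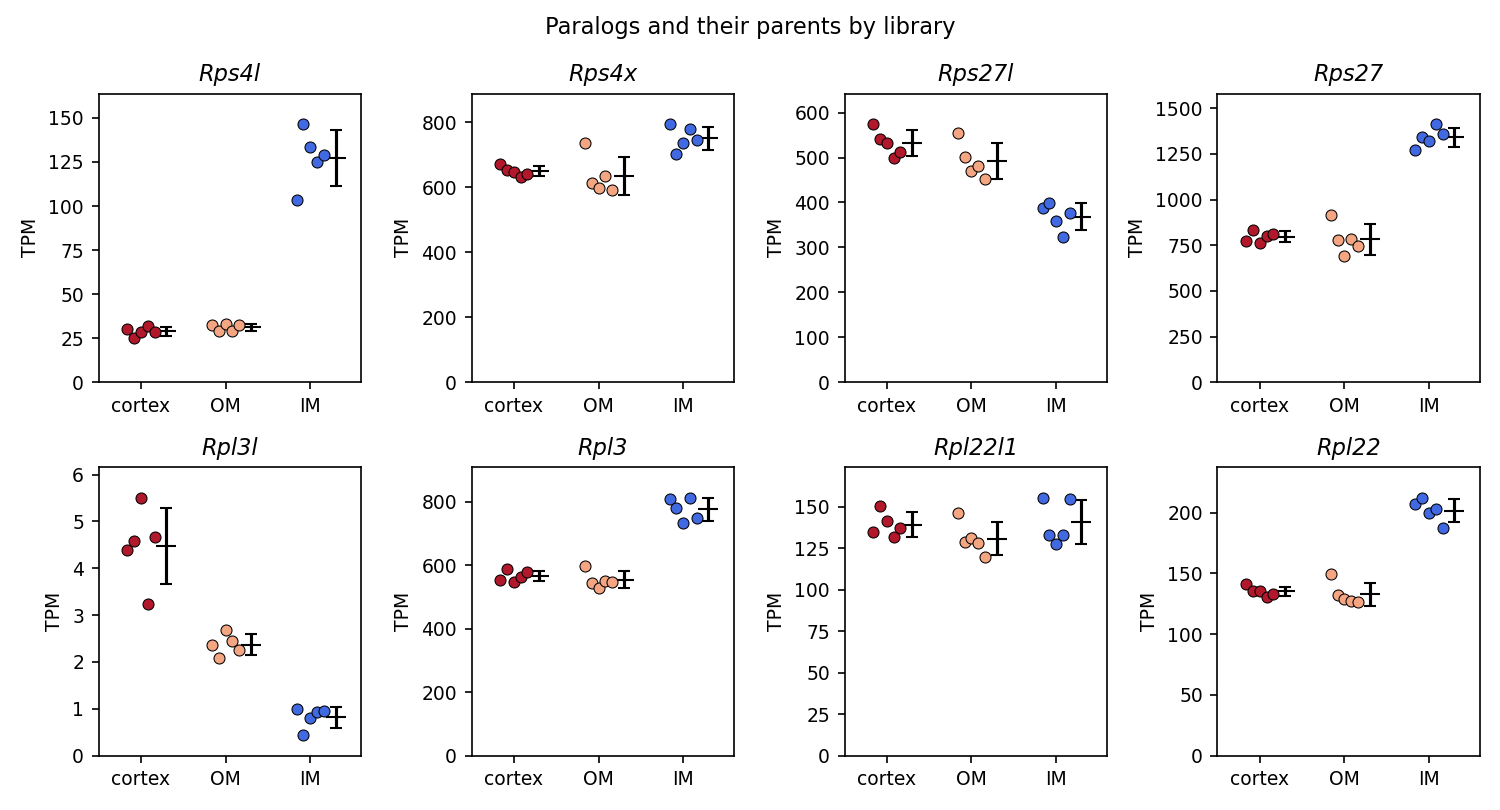
TPM of 4 paralogs, each left of its parent, in every library by kidney zone; points are libraries in number order and bars the mean ± SD (n = 5), each axis starting at 0. In IM Rps4l is near 127 TPM against about 29 in cortex, Rps27l falls while Rps27 rises, Rpl3l is lower from zone to zone, and Rpl22 is higher in IM while the zones of Rpl22l1 overlap.

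Rps4l, a copy of the small subunit gene Rps4x that RefSeq lists as a transcribed pseudogene, was the member with the largest rise. Its TPM was 30.1, 25.2, 28.7, 31.9 and 28.6 in cortex, 32.3, 28.9, 33.2, 29.0 and 32.5 in OM, and 103, 146, 133, 125 and 129 in IM. Every IM library lay far above all others, while cortex and OM overlapped. IM was 4.40-fold above cortex in mean TPM, with a log2 difference of 2.10 ± 0.08 (SE; limma adjusted p = 2.01e-12) on the TPM scale and 1.41 ± 0.08 (2.1e-10) on the median-ratio scale. Its parent Rps4x, on the X chromosome, went from 649 ± 15.4 TPM in cortex to 751 ± 35.9 in IM (SD, n = 5). Rps4l therefore stood at 4.46% of Rps4x in cortex, 4.94% in OM and 17.1% in IM (exact permutation adjusted p = 0.0147 for IM against either zone, 5 of 5 libraries). The aligned part of its GENCODE M21 transcript is 80.1% identical to the Rps4x coding frame, and between 268 and 1558 reads a library lay behind its values.

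Rps27l, a paralog of Rps27 known as a p53 target that binds Mdm2, fell in IM, where the row of its parent rose. Its TPM was 574, 542, 532, 498 and 513 in cortex, 555, 500, 471, 482 and 453 in OM, and 387, 398, 359, 323 and 377 in IM. All IM libraries lay under all others, and cortex and OM overlapped. The IM minus cortex log2 difference was -0.53 ± 0.07 (SE; limma adjusted p = 1.84e-06), and -1.23 ± 0.08 (1.39e-09) on the median-ratio scale. Rps27 had TPM of 773, 835, 762, 800 and 814 in cortex, 918, 781, 690, 784 and 744 in OM, and 1272, 1341, 1321, 1412 and 1361 in IM, with no overlap between IM and the rest. The Rps27 row held nearly the reads of an identical copy, Rps27rt, so its rise and any ratio to it cannot be assigned to Rps27 alone. Rps27l went from 66.8% ± 5.06 of the Rps27 row in cortex and 63.0% ± 3.24 in OM to 27.6% ± 2.95 in IM (SD, n = 5; exact permutation adjusted p = 0.0147 for both).

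Rps27 has another copy, the retrogene Rps27rt, and the start of the coding frame shows which copies reads can tell apart. Capitals mark bases that differ from Rps27 in the first 60 coding bases of the GENCODE M21 transcripts.
Rps27: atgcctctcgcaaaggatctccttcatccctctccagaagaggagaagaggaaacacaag
Rps27rt: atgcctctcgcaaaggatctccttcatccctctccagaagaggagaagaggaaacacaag
Rps27l: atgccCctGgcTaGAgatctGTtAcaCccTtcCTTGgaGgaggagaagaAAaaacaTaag
Rps27 and Rps27rt are identical over the whole frame of 255 bases, while Rps27l differs at 18 of the 60 bases. The deposited values of a gene are whole multiples of what 1 read is worth, so whole reads could be read back from it (all of the 19997 genes detected in 2 or more libraries). Rps27 held 3709 to 8727 reads a library and Rps27rt between 3704 and 8710, with a largest difference of 17 reads in a library. Their TPM therefore moved together at a ratio of 1.67 (Rps27rt to Rps27), and the values do not tell how much either copy was transcribed. A further 3 members held nearly the read counts of a row outside the set: Rpl34 and Rpl34-ps1 (largest difference 20 reads), Rpl26 and Gm15772 (0 reads), and Rpl30 and Gm12191 (7 reads). Without Rps27rt the set summed to 6.20%, 5.93% and 7.56% of TPM in cortex, OM and IM. Rpl37rt, whose transcript is 99.7% identical to the Rpl37 frame, was counted apart from it, with 66 to 207 reads a library and 3.11% to 3.46% of the TPM of Rpl37 in the zone means. Its ratio to Rpl37 had an exact permutation adjusted p of 0.325 to 0.937 over the 3 comparisons.

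Rpl3l, a paralog of the large subunit protein Rpl3 known from heart and skeletal muscle, was at a low level that differed between the zones. Its TPM was 4.39, 4.59, 5.50, 3.23 and 4.66 in cortex, 2.37, 2.09, 2.68, 2.46 and 2.25 in OM, and 0.9998, 0.443, 0.794, 0.925 and 0.947 in IM. None of the zones overlapped. IM minus cortex was -1.58 ± 0.12 (log2, SE) on a log2(TPM + 1) scale that understates changes of low genes, and is given as a description since Rpl3l passed the filter only through the zones where it is high. Between 8 and 89 reads a library lay behind these values. Rpl3 itself was at 567 ± 16.6, 554 ± 26.6 and 777 ± 35.6 TPM (SD, n = 5), and Rpl3l stood at 0.791% ± 0.153 of Rpl3 in cortex, 0.429% ± 0.050 in OM and 0.106% ± 0.0283 in IM.

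On the TPM scale Rpl22 rose in IM, and Rpl22l1 was not called for IM minus cortex. Rpl22, a large subunit protein that in mice is known to hold down the messenger RNA of its paralog, had TPM of 142, 135, 135, 131 and 133 in cortex, 149, 132, 129, 127 and 126 in OM, and 207, 212, 199, 203 and 187 in IM. Rpl22l1 had TPM of 135, 151, 142, 132 and 137 in cortex, 146, 129, 131, 128 and 120 in OM, and 155, 133, 128, 133 and 154 in IM, with overlap of all zones. Its level relative to Rpl22 was 103% ± 5.87 in cortex, 98.6% ± 2.87 in OM and 70.0% ± 8.49 in IM (SD, n = 5; exact permutation adjusted p = 0.0147 for IM against either zone). On the TPM scale Rpl22l1 was not called in limma for IM minus cortex (log2 0.01 ± 0.07, SE; adjusted p = 0.871). Rpl22 itself did not rise on the median-ratio scale, where IM minus cortex was -0.13 ± 0.06 (log2, SE, limma adjusted p = 0.0518). With the replicate block on that scale it was called lower (limma adjusted p = 0.0155).

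Rpl36al and its parent Rpl36a parted likewise. Capitals mark the 11 bases in which Rpl36al differs over the first 60 coding bases.
Rpl36a: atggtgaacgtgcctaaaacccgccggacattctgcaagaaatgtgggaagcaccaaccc
Rpl36al: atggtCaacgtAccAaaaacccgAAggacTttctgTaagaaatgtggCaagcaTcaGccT
In cortex, OM and IM, Rpl36al was at 537 ± 19.8, 506 ± 44.2 and 465 ± 38.8 TPM and Rpl36a at 505 ± 17.3, 475 ± 56.3 and 597 ± 23.0 TPM (SD, n = 5). The ratio of Rpl36al to Rpl36a went from 106.5% ± 5.78 in cortex to 77.9% ± 3.64 in IM (exact permutation adjusted p = 0.0147), and no IM library reached a cortex or OM library. Of the other pairs, the ratio of Rpl7l1 to Rpl7 went from 7.96% in cortex to 5.75% in IM (same adjusted p). Rpl7l1 itself was at 57.9 to 63.6 TPM in cortex and 61.5 to 69.7 in IM, while Rpl7 was at 740 to 787 and 1070 to 1220. Rpl32l, at about 1.2 TPM, showed no ratio that passed the test. Rps19bp1, which encodes a regulator of the deacetylase Sirt1 and binds Rps19, rose from 41.8 ± 2.71 TPM in cortex to 67.5 ± 8.73 in IM (log2 0.67, limma) and was not called on the median-ratio scale (-0.02).

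Fau and Rack1, which the symbol rule does not reach, also encode ribosomal proteins, and both lay within the range of the set. Fau, which encodes Rps30 behind a ubiquitin-like protein, was at 707 ± 65.9 TPM in cortex and 820 ± 61.4 in IM. Rack1, the scaffold on the head of the small subunit, was at 566 ± 3.87 TPM in cortex and 578 ± 35.0 in IM (log2 0.03, not called in limma).

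Other parts of the translation machinery are given beside all genes tested, of which 70.2% were called higher and 16.0% lower in IM than in cortex on the TPM scale, and 40.0% and 38.6% on the median-ratio scale. Mitochondrial ribosomal proteins, which build the separate ribosome of the organelle, had 19 of 78 called higher and 30 lower in IM than in cortex on the TPM scale, with a median log2 difference of -0.05. On the median-ratio scale 76 of the 78 were called lower, with a median of -0.74, beside -0.40 for the cytosolic set. Genes listed for TOP messengers, mostly translation factors but also Tpt1, Npm1 and Hnrnpa1, had 10 of 17 called higher and 1 lower in IM than in cortex on the TPM scale. On the median-ratio scale the counts were 1 and 16, the 1 being Hnrnpa1. Of the 11 with a promoter entry, 1 carried the C run at the annotated start and 5 within 10 bases of it. Tpt1, the abundant TOP transcript of a growth-related protein, was the 1 called lower on the TPM scale, at 3023 ± 65.4 TPM (SD, n = 5) in cortex, 2310 ± 268 in OM and 1833 ± 118 in IM. Ribosome biogenesis factors had 24 of 28 called higher and 1 lower on the TPM scale, with a median of 0.77, and 13 higher and 9 lower on the median-ratio scale, with a median of 0.10. Polr1a, the largest subunit of RNA polymerase I, was at 8.34 ± 0.346 TPM in cortex and 21.6 ± 3.29 in IM, and Nop58, of the box C/D small nucleolar particle, at 19.0 ± 1.91 and 53.7 ± 5.05 TPM, and both were called higher on both scales. The median over all genes tested was 0.65 on the TPM scale and 0.03 on the median-ratio scale. Regulators of ribosome synthesis had 13 of 15 called higher and 1 lower on the TPM scale, and 4 higher and 8 lower on the median-ratio scale. Myc went from 4.65 ± 1.13 to 14.0 ± 3.64 TPM and was called higher on both, whereas Mtor, the kinase of mTORC1, had means of 72.0 ± 9.30 (cortex), 108 ± 11.8 (OM) and 56.6 ± 10.7 TPM (IM) and was called lower in IM than in cortex on both.

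**Figure D5:**
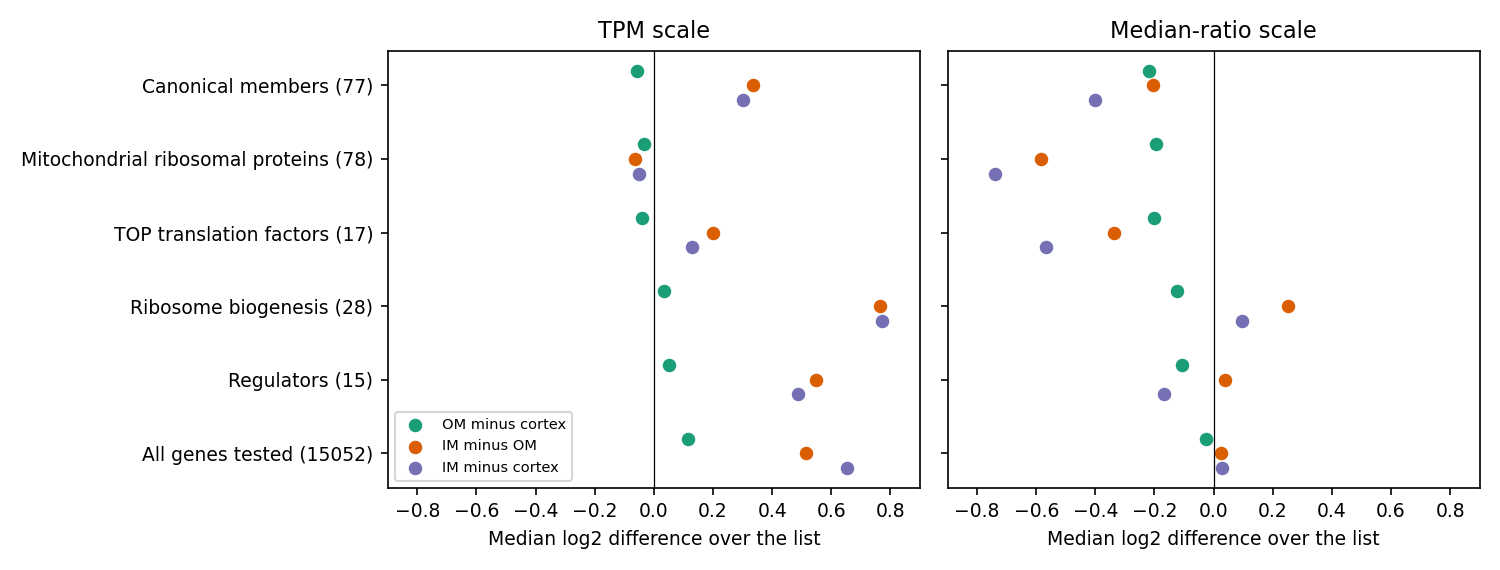
Median log2 difference of each gene list in the 3 zone comparisons, on the TPM scale (left) and the median-ratio scale (right); the number of genes tested is in brackets. Cytosolic canonical members lie at 0.30 for IM minus cortex on the TPM scale and at -0.40 on the median-ratio scale, and mitochondrial ribosomal proteins at -0.05 and -0.74.

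Many ribosomal protein genes carry small nucleolar RNAs in their introns, which guide chemical changes of ribosomal RNA. The table held 31 such rows in 22 member genes, 30 of them tested, and such short rows can also collect reads of the unspliced host. For IM minus cortex 20 were called higher and 0 lower on the TPM scale in limma, with a median log2 difference of 1.01, and 7 higher and 0 lower on the median-ratio scale (70.2% and 40.0% of all genes higher). Snora65, in Rpl12, had cortex, OM and IM means of 22.2, 15.5 and 96.1 TPM, and Snord100, in Rps12, of 17.0, 19.5 and 43.8 TPM.

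Among 6932 genes outside the set at 20 TPM or more on average, those most like the mean of the 77 canonical members over the 15 libraries (Pearson's r of log2 values) were Zcchc7 (0.984), Rpl34-ps1 (0.982), Gm12191 (0.977), Ing4 (0.977), Cwc15 (0.975), Eif3k (0.973), Tmem35b (0.971) and Srek1 (0.970). This r was taken on log2(TPM + 1) alone and takes no account of the size of a change. Relative to the set, on the ribosomal-protein scale, IM minus cortex was 0.53 for Zcchc7, 0.29 for Tmem35b and 0.26 for Ing4 (log2). For Cwc15 it was 0.18, for Srek1 0.15, for Gm12191 0.080, for Rpl34-ps1 0.077 and for Eif3k -0.051. Rpl34-ps1 and Gm12191 are the rows that held nearly the reads of Rpl34 and Rpl30. The members' own r with the mean of the others had a median of 0.919, and 2 were below 0, the lowest being Rps2 at -0.689.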

How the data were processed

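Whole-tissue RNA of 15 libraries was sequenced paired-end; reads were aligned to mm9 with STAR, per the submitters' processing notes, and the counting tool is not given in the sources used here. The authors deposited TPM per gene, a length-corrected abundance scaled to a fixed total. The rule on members and all gene lists were chosen with earlier results of these data known. Whole reads were recovered from the steps between TPM values: 100% of 19997 genes came within 0.001 of whole numbers. The main test was limma 3.58.1 (R 4.3.3, statmod 1.5.0) on log2(TPM + 1), all 15 libraries, zone as the term, trend and robust moderation, two-sided, Benjamini-Hochberg adjusted. It was tested on simulated data with known changes. The ratios of paralogs to parents and their tests were added after the values were seen. Named members were the extremes of each comparison on the median-ratio scale, the most abundant, all paralogs with parents, stalk and 5S particle proteins, and called members against the majority; Rpl10a, Rps12, Rpl36, Rpl26, Rpl27a, Rps6, Rpl30 and Rpl34, the examples from other lists and the small nucleolar RNAs named were picked after their values were seen. GC content was read from the longest coding frame in GENCODE M21 for 77 of 77 canonical members. Sequences are RefSeq (GRCm38.p6) and GENCODE M21, not the build of the files. Some genes are not reported here.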

Additional observations from a re-analysis of the deposited data

Results flagged for a closer look

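Within a zone, a library whose gap to the nearest other took up more than 0.71 of the range of the 5 libraries was marked (Dixon's critical value), over 104 groups of values; chance marks about 1 in 20 groups. Of 11 marked values 9 were in OM library 1. The summed share of members was 6.80% of TPM there, with the next at 5.94%. In the same library TPM was high for Rpl32 (1492, next 1141), Rpl7 (952, next 791), Rps14 (1663, next 1353), Rps19 (654, next 538), Rps4x (736.5, next 633), Rpl22 (149, next 132) and Rpl5 (365, next 328), and low for Rplp0 (904, next 955). That library also had the urothelial and thin limb marker levels given above, and their part in these values was not tested. In IM, Rplp1 was low in library 1 (2166, next 2729 TPM) and Rpsa was low in library 3 (626, next 670 TPM).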

How the results depend on the processing

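With all libraries on the TPM scale, members called higher and lower numbered 0 and 3 for OM minus cortex, 75 and 4 for IM minus OM, and 63 and 5 for IM minus cortex. On the median-ratio scale they numbered 0 and 61, 3 and 47, and 1 and 75, and on the ribosomal-protein scale 0 and 2, 23 and 29, and 25 and 30. With limma voom on recovered reads they numbered 0 and 6, 46 and 6, and 35 and 9. Fitting only the 2 zones compared gave 1 called higher for OM minus cortex. Without OM library 1 they were 0 and 77, 7 and 44, and 1 and 78 on the median-ratio scale and, on the ribosomal-protein scale, 2 and 2, 26 and 28, and 29 and 33. Without the 3 libraries numbered 1, an alternative added like the preceding one after the data were seen, they were 0 and 24 for OM minus cortex on the TPM scale, 0 and 81, 6 and 49, and 1 and 78 on the median-ratio scale, and 5 and 5, 29 and 31, and 29 and 31 on the ribosomal-protein scale. Leaving out each library in turn gave 0 to 1 higher and 2 to 18 lower for OM minus cortex, 68 to 76 and 3 to 5 for IM minus OM, and 58 to 66 and 5 for IM minus cortex. Quantile normalization, the pseudocount of 0.1 and both other filters kept all 6 counts within 1.5 times those given first. The share of all genes called is given above for the 3 scales, and for genes lower in OM than in cortex without OM library 1. For the other settings, voom and the replicate block among them, that share is not given. Their counts show only how calls of members depend on the setting, not how members compare with other genes.

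Deviations of same-numbered libraries over all genes correlated at -0.027 to 0.262. Of 15 pairs 8 were over 0.1 and 10 were best with their own number. Pairing was to be assumed only with every pair over 0.1, so the fits without the block are given first, but these values, with those of the libraries numbered 1, are a hint from the data that the numbers may mark something shared. With the replicate block 5 members were called lower for OM minus cortex, and the other counts stayed within 1.5 times. With the replicate block on the median-ratio scale members called higher and lower numbered 0 and 65, 3 and 49, and 1 and 76.

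The difference in the share of TPM, in percentage points, was -0.275 for OM minus cortex, 1.72 for IM minus OM and 1.45 for IM minus cortex. It ranged from -0.460 to -0.196, from 1.64 to 1.91 and from 1.40 to 1.51 when libraries were left out in turn. With the other denominator, which leaves out members that the numerator keeps, it was -0.721 for OM minus cortex and 0.600 for IM minus cortex.

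Of single genes called on the TPM scale, some changed sign on another scale. For IM minus OM the log2 difference on the median-ratio scale, with the replicate block or without, was -0.38 for Rpl41, -0.069 for Rps29, -0.29 for Rps4x, -0.24 for Rpl32, -0.40 for Rpl10, -0.20 for Rpl36a, -0.29 for Rpl39, -0.053 for Rpl3, -0.054 for Rpl7, -0.13 for Rplp0, -0.0087 for Rplp2 and -0.40 for Rpl5. For IM minus cortex it was -0.037 for Rps24, -0.019 for Rps19bp1, -0.33 for Rplp1 and Rps29, -0.13 for Rps14 and Rpl22, -0.15 for Rpl37rt and Rpl7, -0.18 for Rpl37, -0.49 for Rps4x, -0.42 for Rpl32, -0.46 for Rpl36a, -0.53 for Rpl39, -0.25 for Rpl3, -0.41 for Rplp0 and -0.36 for Rplp2. On the ribosomal-protein scale IM minus OM was -0.19 for Rpl41, -0.11 for Rps4x, -0.056 for Rpl32, -0.21 for Rpl10 and Rpl5, -0.019 for Rpl36a and -0.10 for Rpl39, and IM minus cortex was -0.093 for Rps4x, -0.016 for Rpl32, -0.061 for Rpl36a, -0.13 for Rpl39 and -0.010 for Rplp0. With quantile normalization Rpl29 was at 0.024 and 0.0092 and Rpl37rt at -0.014 and -0.31 in the contrasts of IM with OM and with cortex. With voom IM minus OM was -0.0049 for Rpl41, -0.020 for Rpl10 and -0.021 for Rpl5, and IM minus cortex was -0.032 for Rpl39. The scales differ by construction in what each library is divided by; which of them is nearer to RNA per cell was not tested.

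The ratios were added after the data were seen. Those of Rpl3l against IM count among the called ratios below but are no support. The 13 called ratios of paralogs to parents kept their direction and call with the pseudocount of 0.1 and without each library in turn. Without the 3 libraries numbered 1, which leaves fewer libraries a zone, they kept their direction but none of the 13 was called. The smallest adjusted p found there was 0.0527 (exact permutation). Depth limits Rpl3l and Rpl32l, with 8 to 89 and 2 to 12 reads a library.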
